A study of Homo sapiens with 2 samples.

Results

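The 9 genes described here are THBS1, TGFBI, TAGLN, TPM1, LTBP1, LTBP2, ACTA2, MYLK and FN1, which encode secreted matricellular and matrix proteins and contractile proteins that transforming growth factor beta (TGF-beta) is known to induce in many cell types. All 36 probe sets that the platform annotation assigns to 1 of these symbols alone were taken, out of 54675 probe sets and 19735 named genes on the array. Total RNA came from HARA, an established human squamous lung cancer cell line, and from HARA-B4, a subline of it described as strongly metastatic to bone. Both grew in the same serum-containing RPMI medium with penicillin and streptomycin, and the labels name no treatment for either. There was 1 Affymetrix array per line (n = 1), so every value below describes 2 arrays. No p-value or biological spread can be given.

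TGF-beta binds cell surface receptors that phosphorylate SMAD proteins, which then enter the nucleus and act on target genes. Its ligands are stored in the matrix in a latent form tethered by latent TGF-beta binding proteins, and thrombospondin 1 is one of the proteins known to release the active ligand. In fibroblasts that turn into contractile myofibroblasts, TGF-beta raises smooth muscle actin and its partners through SMADs together with the serum response factor SRF and its MRTF cofactors. Epithelial cells can take up parts of this programme.

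Signals are linear probe set intensities as deposited. Background was put at 27.1 (4.76 on the log2 scale), the 95th percentile over both arrays of 165 probe sets for chemosensory receptors (olfactory, taste and vomeronasal). A gene's brightest probe set, by the mean of its log2 values, stands for the gene, and log2 differences are HARA-B4 minus HARA. With both arrays above background, a gene was called at a difference of at least 2-fold. Where only 1 array was above background, the other value was set to the background level, so that the fold is a lower bound, and the gene was called when that bound reached 2-fold.

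Of 12 squamous epithelial markers listed, 9 were measured, and KRT17, KRT6A and TP63 had no probe set named by their symbol alone. All 9 were above background on both arrays, with a median log2 difference of 0.23. Of the 9, 2 were called higher in HARA-B4 and 0 lower, beside 3.62% and 4.20% of all genes above background on at least 1 array. The higher ones were the basal keratin KRT15, reading 114 in HARA and 454 in HARA-B4 (log2 1.997), and the desmosomal plakophilin PKP1, reading 191 and 672 (log2 1.82). Under 2-fold, the basal keratins KRT14 and KRT5 differed by 0.90 and -0.07 and the desmosomal cadherin DSC3 by -0.98. Trimmed mean signals were 115.6 and 116.0, and the ratio of 3' to 5' signal was 1.39 and 1.31 for ACTB. Between probe sets of the same gene, the log2 difference had a pooled SD of 0.30 over 4830 genes. This spread lies within these 2 arrays and can include differences between transcripts as well as technical ones. It does not measure variation between cultures.

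Of the 9 genes, 8 were above background on at least 1 array, 5 of them on both. HARA-B4 was higher by 2-fold or more for THBS1 and MYLK and lower for ACTA2, and TGFBI, TAGLN, TPM1, LTBP1 and LTBP2 were under 2-fold. FN1 was at background on both arrays. Among all 11489 genes above background on at least 1 array, 3.62% were called higher and 4.20% lower. The median log2 difference of the 8 genes was 0.68 with low values set to background and 0.75 as measured, beside a median of 0.01 over all 11489 genes, whose middle portion between the 25th and 75th percentiles ran from -0.29 to 0.28. The measured difference was positive for 7 of the 8 genes. Of these 7, TAGLN turned negative and LTBP2 fell to 0.02 when all their probe sets were averaged, and neither is given a direction below. By probe set, 16 of the 36 were above background on at least 1 array, of which 4 were called higher and 1 lower, against 3.18% and 4.14% of all named probe sets above background. The genes were listed with results of these arrays in view, so these shares describe the group and do not test it.

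**Figure D1:**
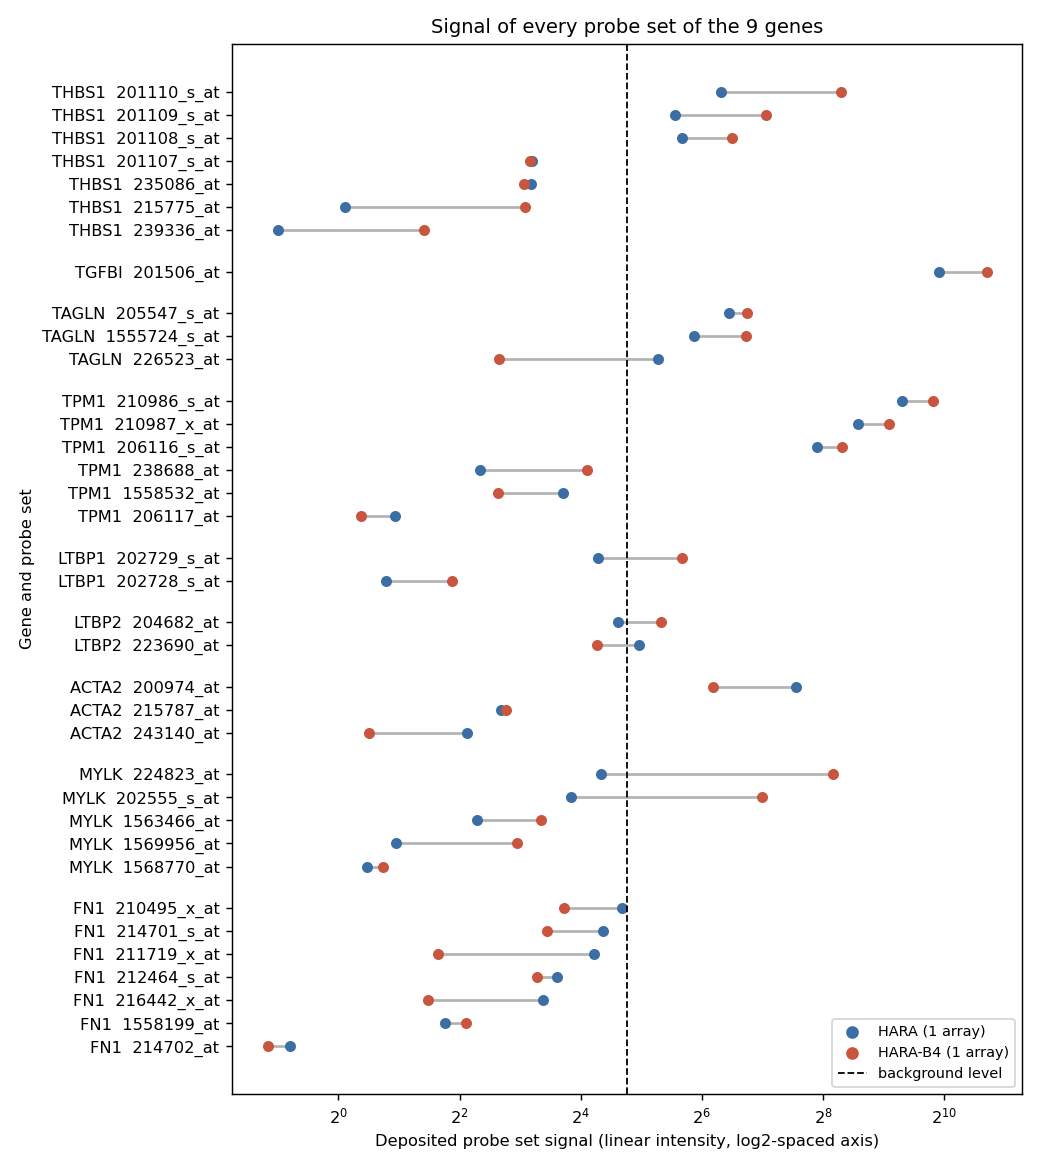
Each row is 1 probe set of the 9 genes, with its deposited signal in HARA (blue) and HARA-B4 (red) on a log2-spaced axis, 1 array each, and the dashed line is the background level of 27.1. The 3 brightest THBS1 probe sets and both MYLK probe sets that cross the line lie further right in HARA-B4, the brightest ACTA2 probe set lies further left, and all 7 FN1 probe sets lie left of the line.

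Among the secreted matricellular proteins, THBS1, which encodes thrombospondin 1, a trimeric glycoprotein that binds many matrix and cell surface partners, had the larger difference. Its main probe set (201110_s_at) read 79.3 in HARA and 316 in HARA-B4, a 3.98-fold difference (log2 1.99). A second probe set (201109_s_at) read 47.1 and 133 (log2 1.497), and another (201108_s_at) 51.02 and 89.96 (log2 0.82). HARA-B4 was therefore higher by each of the 3, but the log2 difference ranged from 0.82 to 1.99 among them, and the last did not reach 2-fold. The other 4 THBS1 probe sets did not rise above background on either array, with signals of at most 9.20 in HARA and 8.91 in HARA-B4. All 3 informative probe sets carry the suffix _s_at, meaning that they can match more than 1 transcript, and without such probe sets THBS1 had no value above background.

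The sequence before the annotated start of THBS1, one of the 3 called genes, is shown because SMAD, SRF and TEAD factors are known to act on regulatory DNA. Binding of these factors was not measured here, so a motif match is a match of letters only. It covers chr15:39580829-39581078 on the plus strand, the 250 bases before the RefSeq gene start (GRCh38.p14), and capitals mark the motif matches described here.
THBS1: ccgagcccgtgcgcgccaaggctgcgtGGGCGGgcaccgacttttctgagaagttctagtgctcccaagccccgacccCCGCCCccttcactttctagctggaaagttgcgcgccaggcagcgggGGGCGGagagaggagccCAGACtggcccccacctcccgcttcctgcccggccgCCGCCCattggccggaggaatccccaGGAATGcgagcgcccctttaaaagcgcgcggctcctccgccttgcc
A TEAD match (GGAATG) stood at positions -46 to -41, counted back from the start, and a match to the short SMAD motif (CAGAC) at -108 to -104. The remaining capitals are 4 GC boxes (GGGCGG). A SMAD match is common in such windows, since 38.0% of all 35116 promoter windows of this length hold one on either strand, as do 11.9% for TEAD and 42.6% for the GC box.

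TGFBI encodes a secreted protein with an integrin-binding sequence that attaches to collagens. It had a single probe set (201506_at), which read 963 in HARA and 1662 in HARA-B4, a 1.73-fold difference (log2 0.79). The signal was well above background on both arrays, and the difference stayed under 2-fold. No second probe set was available to repeat it.

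The latent TGF-beta binding proteins were dim on both arrays. LTBP1, which holds latent TGF-beta in the matrix, read 19.6 in HARA, under background, and 50.8 in HARA-B4 on its brighter probe set (202729_s_at), so it was at least 1.87-fold higher in HARA-B4. That bound lies just under the 2-fold rule, and with background set at the 90th percentile LTBP1 was called higher, at a log2 difference of 1.38. Its other probe set was at background on both arrays, at 1.72 and 3.68. LTBP2, a relative that binds fibrillin microfibrils, gave opposite readings. One probe set (204682_at) read 24.4 and 40.1 in HARA and HARA-B4, and the other (223690_at) 31.1 and 19.3. Each crossed the background level on 1 array only, in opposite directions, and the mean of both probe sets differed by 0.02, so no direction is given for LTBP2.

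FN1 encodes fibronectin, which cells assemble into fibrils that hold other matrix proteins. None of its 7 probe sets rose above background on either array: signals ran from 0.57 to 25.6 in HARA and from 0.45 to 13.2 in HARA-B4. The highest of these values, 25.6, came close to the level of 27.1. With background at the 90th percentile, a signal of 19.5, 2 of the 7 were above it in HARA and 0 in HARA-B4. By the rule used here FN1 had no measurable signal in either line, and no fold is given.

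Among the contractile genes, MYLK differed most. It encodes myosin light chain kinase, the calmodulin-dependent enzyme that phosphorylates the regulatory light chain of myosin and so starts actomyosin contraction. Its main probe set (224823_at) read 20.2 in HARA, under background, and 285 in HARA-B4, which makes it at least 10.5-fold higher in HARA-B4. A second probe set (202555_s_at) read 14.3 and 127, at least 4.69-fold higher. Both went from under background in HARA to far above it in HARA-B4. The other 3 probe sets were at background on both arrays, the highest reading being 10.1. MYLK was called higher under each of the 10 alternative settings, with log2 differences from 2.39 to 3.82 across the alternatives at the 2-fold rule.

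The promoter table's entry for MYLK is shown because it was the 1 window among the 8 searched that held a CArG box, the element bound by SRF. It covers chr3:123620549-123620798 on the minus strand (GRCh38.p14), and capitals mark the CArG box and the adjoining TATA matches.
MYLK: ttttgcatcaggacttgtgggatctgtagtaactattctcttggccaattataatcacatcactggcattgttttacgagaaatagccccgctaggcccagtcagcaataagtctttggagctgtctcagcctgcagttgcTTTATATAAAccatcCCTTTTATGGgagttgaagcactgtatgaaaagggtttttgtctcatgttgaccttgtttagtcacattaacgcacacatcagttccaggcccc
The CArG box lay at positions -94 to -85, after overlapping TATA matches (TATAAA, on both strands) between -109 and -100. Of all 35116 windows, 1.16% held a CArG box and 10.7% a TATA match. This window does not precede the outermost start of MYLK: it ends 263784 bases inside a gene of 274284 bases. MYLK is known to have several starts, including an internal one for telokin, a short smooth muscle protein that shares the end of the kinase. The sources used here do not say where the probe sets lie in the gene, so transcripts of the kinase and of telokin cannot be told apart in these signals. MYLK-AS1, an antisense RNA gene that overlaps the end of MYLK, was above background on both arrays with a difference of 0.40.

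ACTA2, which encodes smooth muscle alpha-actin, the standard marker of myofibroblasts, went the other way. Its main probe set (200974_at) read 187 in HARA and 72.5 in HARA-B4, 2.58-fold lower in HARA-B4 (log2 -1.37). Both signals were above background. The other 2 probe sets were not, at 4.38 and 1.42 for one and 6.39 and 6.80 for the other, so this difference rests on 1 probe set. Among these 9 genes ACTA2 was the only called gene with a negative difference, and the call held at 2-fold under each alternative and was lost only at a 3-fold rule.

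The window before the outermost annotated start of ACTA2 is shown for comparison with the others. It covers chr10:88991338-88991587 on the minus strand (GRCh38.p14).
ACTA2: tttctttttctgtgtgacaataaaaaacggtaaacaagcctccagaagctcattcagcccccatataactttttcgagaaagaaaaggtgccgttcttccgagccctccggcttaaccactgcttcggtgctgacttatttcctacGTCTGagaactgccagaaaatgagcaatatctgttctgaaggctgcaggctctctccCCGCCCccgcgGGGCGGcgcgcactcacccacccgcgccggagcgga
The capitals are a SMAD match (GTCTG on this strand) at -104 to -100 and a pair of GC boxes. No CArG box was found in these letters, and other start sites within the gene were not examined. Promoter windows were found for 8 of the 9 genes, and TAGLN had no entry. SMAD matches were present in 4 of the 8, those of THBS1, TPM1, LTBP1 and ACTA2, beside 38.0% of all windows. GC boxes were present in 6 (42.6% of all windows) and AP-1 matches (TGANTCA, 6.57% of all windows) in 0. The TPM1 window, like that of MYLK, lies within the gene, 5742 bases from its outermost start.

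TAGLN encodes transgelin, also called SM22, an actin-binding protein of smooth muscle. Its main probe set (205547_s_at) read 86.9 in HARA and 106.7 in HARA-B4 (log2 0.30). A second probe set (1555724_s_at) read 58.6 and 105.9 (log2 0.85). The last one (226523_at) read 38.5 in HARA and 6.25 in HARA-B4, at least 1.42-fold lower. The 3 probe sets thus disagreed in sign, and the mean over all of them was -0.49, so no direction is given for TAGLN.

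TPM1 encodes tropomyosin 1, which lies along actin filaments and controls access of myosin, and it is spliced into muscle and non-muscle forms. Its 3 bright probe sets read 630 and 898 (210986_s_at), 384 and 541 (210987_x_at), and 239 and 317 (206116_s_at) in HARA and HARA-B4. The log2 differences of 0.51, 0.50 and 0.41 were close to each other, all higher in HARA-B4 and all under 2-fold. The suffixes _s_at and _x_at mean that these probe sets can match several transcripts or related sequences, so splice forms were not separated. The remaining 3 were at background on both arrays.

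**Figure D2:**
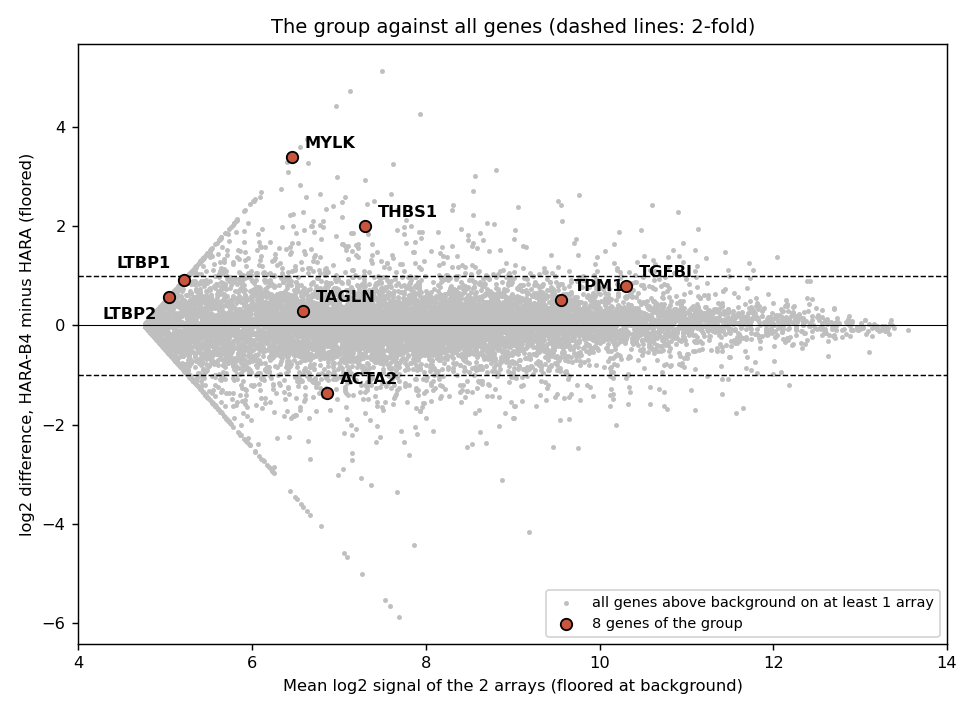
Each grey point is a gene above background on at least 1 array, by its mean log2 signal over the 2 arrays and its log2 difference (HARA-B4 minus HARA), with values under background set to it, and red points are the 8 genes of the group. MYLK at 3.39 and THBS1 at 1.99 lie above the upper 2-fold line, ACTA2 at -1.37 lies below the lower one, and the other 5 lie between 0 and 1.

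Around these genes, 6 lists of related genes were described in the same way. They were drawn up with earlier results of these data known, hold none of the 9 genes, and together had 81 distinct genes above background on at least 1 array. Of the 81, 11 were called higher, 4 lower and 66 neither, beside the 3.62% and 4.20% of all genes, and their median was 0.14. The same shares of all genes stand beside the counts of each list below.

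Of 23 genes of the wider contractile apparatus above background, 0 were called higher and 2 lower, beside 3.62% and 4.20% of all genes. The list's median was 0.10, beside 0.01 over all genes. The lower ones were CALD1, which encodes the actin and myosin binding protein caldesmon and read 1825 in HARA and 874 in HARA-B4 (log2 -1.06), and PPP1R12C, a myosin phosphatase regulatory subunit, at 59.9 and 28.6 (log2 -1.07). All 6 CALD1 probe sets above background on at least 1 array were lower in HARA-B4, with measured log2 differences from -2.13 to -0.88. The partners on which MYLK acts were also read. The smooth muscle light chain gene MYL9 was at 12.7 and 34.0, above background in HARA-B4 only, while the light chain genes MYL12A and MYL12B differed by -0.66 and -0.25. The non-muscle myosin heavy chains MYH9 and MYH10 differed by 0.54 and 0.20. The actin gene ACTB differed by 0.11, and ROCK1, a kinase that restrains myosin phosphatase, by -0.98. The tropomyosin gene TPM4 differed by -0.15, TPM2 was at background on both arrays, and the transgelin relative TAGLN2 differed by 0.74, under 2-fold.

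Genes of the SRF and MRTF axis had 2 called higher and 0 lower of 10 above background, with a median of 0.50. The higher genes were FHL2, a LIM-domain cofactor at 901 in HARA and 2363 in HARA-B4 (log2 1.39), and PDLIM7, a LIM protein of actin filaments, at 71.1 and 152 (log2 1.09). The other 3 PDLIM7 probe sets that were above background in HARA-B4 only had positive differences too. SRF itself read 136 and 76.0 (log2 -0.84), its cofactor MRTFA 58.01 and 90.98 (log2 0.65) and MRTFB 349 and 283 (log2 -0.30), all under 2-fold. The focal adhesion protein gene VCL and the matricellular CCN1 differed by 0.82 and 0.83, and MYOCD, CCN2 and ANKRD1 were at background on both arrays.

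**Figure D3:**
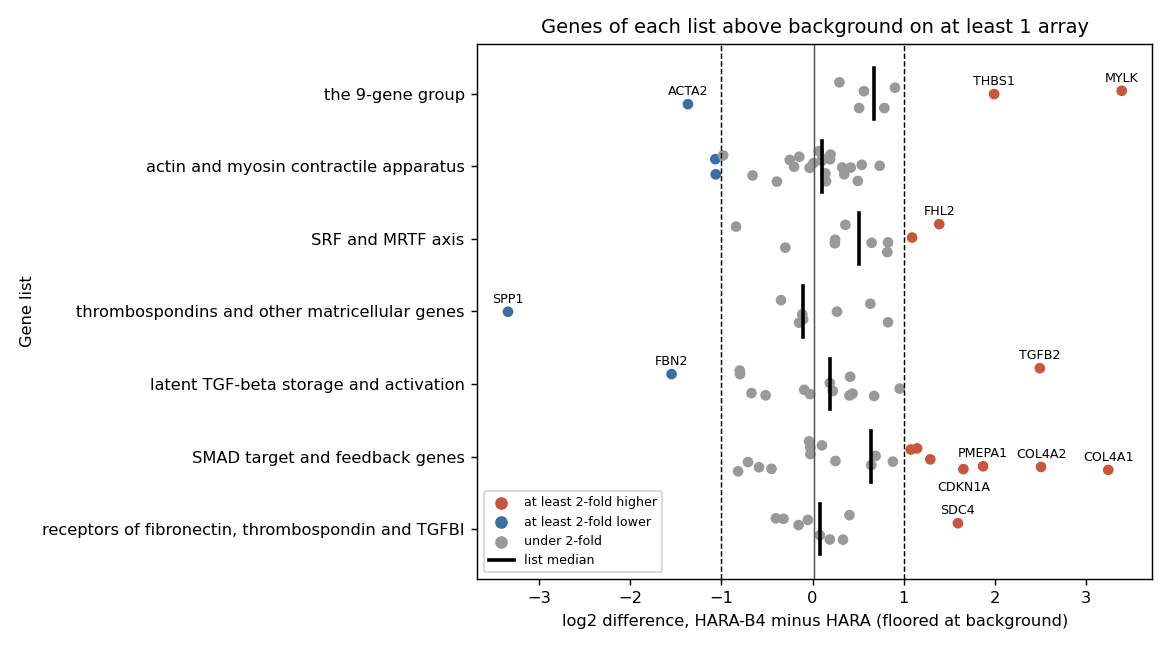
Each point is a gene above background on at least 1 array, placed by its log2 difference (HARA-B4 minus HARA, values under background set to it), for the 9-gene group and 6 related lists, and vertical spread within a list is only for legibility. Black bars are list medians, from -0.11 for the matricellular list to 0.68 for the 9-gene group, and the dashed lines mark 2-fold.

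SMAD target and feedback genes had 7 called higher and 0 lower of 19 above background, with a median of 0.64. COL4A1 and COL4A2, the paired basement membrane collagen chains, differed by 3.25 and 2.51. PMEPA1, an inhibitor of TGF-beta signalling that the pathway itself induces, read 627 in HARA and 2296 in HARA-B4 (log2 1.87), with 3 probe sets between 1.63 and 1.87. CDKN1A, the cyclin-dependent kinase inhibitor p21, differed by 1.66. SMAD7, the inhibitory SMAD, read 48.3 and 102.1 (log2 1.08). Other members did not follow, among them the corepressor gene SKIL at -0.03, TGIF1 at -0.82 and SNAI2 at -0.02.

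Other matricellular genes were often under background. Of 21 measured, 13 were not above it on either array, as were 41.8% of all 19735 genes. Of the other 8, 0 were called higher and 1 lower, with a median of -0.11. The lower gene was SPP1, which encodes osteopontin, at 275 in HARA and 7.38 in HARA-B4, at least 10.1-fold lower. Among the relatives of THBS1, THBS3 read 38.98 and 35.2, THBS4 29.3 and 23.97, and THBS2 and COMP were at background on both arrays. The difference between THBS1 and its relatives was not tested. TNC, POSTN and SPARC, matricellular genes often induced with THBS1, read 19.9 and 42.1 for TNC, and were at background on both arrays for POSTN and SPARC.

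Storage and activation of latent TGF-beta gave 1 higher and 1 lower of 15 above background, with a median of 0.19. The ligand gene TGFB2 read 24.7 in HARA and 153 in HARA-B4, at least 5.64-fold higher, and the microfibril gene FBN2 read 376 and 129 (log2 -1.55). FBN1, another fibrillin gene, was above background in HARA only, at 43.2 and 14.5. LTBP3 and LTBP4 read 49.6 and 48.6, and 28.9 and 21.3, in HARA and HARA-B4, and neither was called. The integrin genes ITGAV and ITGB8, whose product is known to free latent TGF-beta, differed by 0.41 and 0.68, and the ligand gene TGFB1 by 0.41.

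Receptors for fibronectin, thrombospondin and TGFBI had 1 called higher and 0 lower of 9 above background, with a median of 0.08. The higher one was SDC4, which encodes the heparan sulphate proteoglycan syndecan 4, at 213 in HARA and 644 in HARA-B4 (log2 1.60). The fibronectin receptor chains ITGA5 and ITGB1 were above background on both arrays and differed by -0.05 and 0.33, in lines whose own FN1 was at background. The thrombospondin receptor gene CD47 differed by 0.08, and CD36 was at background on both arrays.

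Markers of fibroblasts, smooth muscle cells and pericytes, endothelial cells and blood cells were read beside these results. In bulk RNA, fewer cells of a type and less RNA per cell cannot be told apart. Of 10 fibroblast markers 3 were above background on at least 1 array, 1 called higher, 1 lower and 1 neither. The higher one, FAP, read 1.76 in HARA and 155 in HARA-B4, and the lower one, THY1, 63.8 and 23.8. COL1A1 read 185 and 140, above background on both arrays. The list's summed signal was 307 in the parental line and 379 in HARA-B4. The other markers of the list, COL1A2, COL3A1, DCN, LUM, PDGFRA, PDGFRB and POSTN, were at background on both arrays. Of 9 smooth muscle and pericyte markers, 5 were above background and 0 were called, and DES, CNN1, LMOD1 and SYNPO2 were at background on both. The list's summed signal, which includes the markers at background, was 190 in HARA and 240 in HARA-B4. The brightest of the 5, MCAM and CSPG4, differed by -0.08 and 0.52. MYH11, the smooth muscle myosin heavy chain gene, read 3.33 in HARA and 27.3 in HARA-B4, barely over the background level. Of 6 endothelial and 6 blood cell markers measured, 1 and 2 were above background and 0 were called. PECAM1 read 50.6 in HARA and 50.4 in HARA-B4 (log2 -0.01). CD79A read 63.4 and 55.2 (log2 -0.20), and HBB 35.7 and 33.9 (log2 -0.07).

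The 9 genes lie on 7 chromosomes, with THBS1 and TPM1 on 15 and LTBP1 and FN1 on 2. For each, the 10 nearest genes above background on both arrays were taken on either side. The median log2 difference of these neighbours was 0.00 for THBS1, 0.04 for TGFBI, 0.11 for LTBP1, 0.03 for ACTA2 and 0.06 for MYLK. These medians were far below the size of the THBS1, ACTA2 and MYLK differences, but single neighbours varied more. Around ACTA2 they ran from -1.34 for ADIRF to 1.635 for IFIT1, with 2 called higher and 2 lower. The lowest was thus close to ACTA2 itself, at -1.37. Whether ACTA2, or any other of the 9 genes, differed from its region was not tested. For TAGLN, the neighbours had a median of 0.33, with 16 of 20 positive. The main TAGLN probe set differed by 0.30, but the mean of all its probe sets was -0.49. LTBP2 had 16 of 20 neighbours with negative differences and a median of -0.22. TPM1 stood at 0.51 among neighbours with a median of -0.12. Next to TGFBI, the chemokine gene CXCL14 differed by 2.71 and SMAD5 by 0.55.

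**Figure D4:**
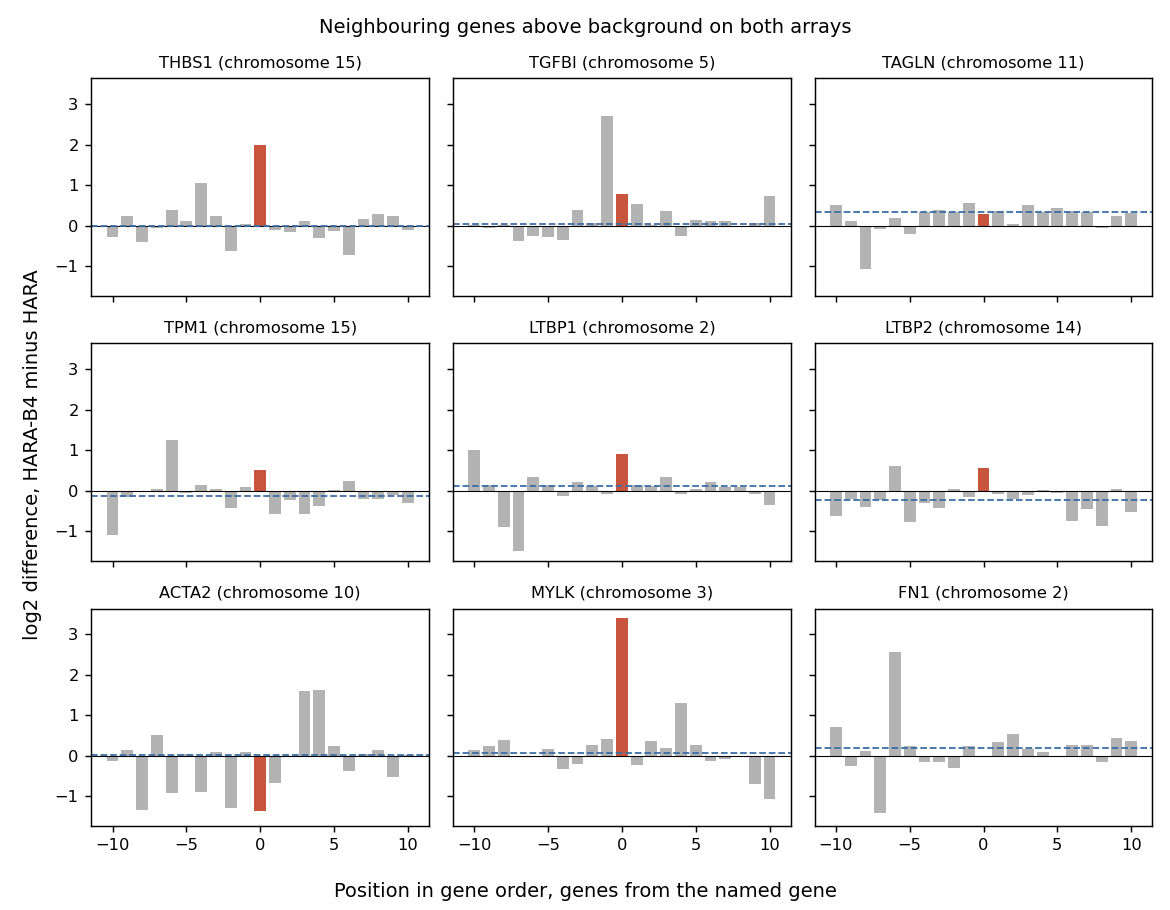
Each panel shows 1 of the 9 genes (red bar at 0, absent for FN1, which was at background) and its 10 nearest genes above background on each side (grey bars), by gene order along the chromosome and log2 difference (HARA-B4 minus HARA). The dashed blue line is the median of the neighbours, which is near 0 for THBS1, ACTA2 and MYLK and 0.33 for TAGLN.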

How the data were processed

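Expression was measured in 1 array of HARA and 1 of HARA-B4. The deposited values are linear intensity values per probe set, made by the authors with Affymetrix Expression Console per the submitters' processing notes. Which version, summary method, background correction and scaling it applied was not given in the sources used here. No further scaling was applied before log2 was taken.

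Of 54675 probe sets, 41097 had 1 gene symbol, 1801 several and 11777 none; only the first kind was named, with 41043 matched by Entrez ID to RefSeq (GRCh38.p14), which also gave promoter windows and gene order. The 9 genes and all lists were chosen with earlier results of these data known. Named genes were the 9 genes with every probe set, and in each list up to 4 with the largest called difference, or the 2 brightest; other named members of a list were picked after their values were seen. With 1 array per group no test was possible. Alternatives covered scaling, background level, an offset of 16, fold and probe set choice. Python 3.11.15 with pandas 2.3.3 was used.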

Additional observations from a re-analysis of the deposited data

How the results depend on the processing

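Over 10 alternatives none reversed a called gene, and MYLK was called higher in each; the group's median log2 difference of 0.68 ran from 0.56 to 0.72 over the 8 alternatives that can change it, with 5 to 9 genes above background. The 3 called genes became 5 at a 1.5-fold rule, where TGFBI and LTBP1 joined, and 2 at a 3-fold rule, where ACTA2 was lost. They became 4 with background at the 90th percentile, where LTBP1 joined, and 2 without probe sets ending in _x_at, _s_at or _a_at, where THBS1 had no value above background. Called probe sets numbered 5, against 9 at 1.5-fold, 3 at 3-fold and 2 without those suffixes. Called genes of the 6 related lists numbered 15, against 34 and 7 at 1.5-fold and 3-fold. At the 2-fold rule their number ran from 10 without those suffixes to 18 with background at the 90th percentile. The alternatives for these lists were chosen after seeing the data. TAGLN, never called, changed from 0.30 to -0.49 with the mean of all probe sets and to -0.51 without those suffixes. No paired analysis was possible because each group holds 1 array. The number of arrays and the closeness of LTBP1, LTBP2 and FN1 to background limit what these values can show.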
